A study of Mus musculus with 6 samples.

Results

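The genes of the aryl hydrocarbon receptor pathway were followed in 6 RNA-sequencing libraries of ATDC5, a mouse chondrogenic cell line, as 7 genes of the 16880 listed: the receptor gene Ahr, its partner gene Arnt, the feedback genes Ahrr and Tiparp, and the enzyme genes Cyp1a1, Cyp1b1 and Aldh3a1. All 7 were found in the deposited table by their symbols. They were chosen by their place in the pathway and by results of the comparison described here, in which Aldh3a1 was already known to differ strongly, so their values are given as a description without a test. The group called IL-1β here comprised 3 libraries of cells that received the inflammatory cytokine IL-1β at 10 ng/mL. The group called IL-1β plus NP-G2-044 comprised 3 libraries from cells given 10 ng/mL IL-1β together with 10 μM NP-G2-044, a small molecule inhibitor of the actin-bundling protein FSCN1. Treatment lasted a day according to the study's methods. All samples were of the same line, every cell received IL-1β, and a group without IL-1β was not analysed here. The sample titles name the inhibitor NP-G2-044 and the treatment labels of the same samples name it NP-G2-047. The methods describe primary chondrocytes of young mice, whereas the labels give ATDC5. NP-G2-044 was compared with IL-1β alone throughout.

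The aryl hydrocarbon receptor is a transcription factor that waits in the cytoplasm with HSP90 and the co-chaperone p23. When it binds a ligand, such as a dioxin, a polycyclic hydrocarbon or an indole made from tryptophan, it enters the nucleus, pairs with ARNT and binds the xenobiotic response element, whose core is GCGTG. Its best known targets are the P450 enzymes of the CYP1 family, and it also induces its own brakes, AHRR, which competes for ARNT, and TIPARP, an ADP-ribosyltransferase that marks the receptor for loss. ALDH3A1 oxidises aromatic and medium-chain aldehydes, and is an old member of the battery of genes that dioxin induces in the liver.

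The sequences around the start sites of 4 target genes are shown because the windows hold the same core letters and the genes were measured at very different levels. RefSeq promoter windows of build GRCm38.p6 were held for 5 of the 7 genes, 250 bases before to 50 after the start, and not for Ahr and Aldh3a1. Capitals mark GCGTG on either strand, read as GCGTG on the strand of the gene and as CACGC on the other, and the windows are given 5′ to 3′ on the strand of the gene. The window of Cyp1b1 is chr17:79715012-79715311 on the minus strand, that of Tiparp is chr3:65528197-65528496 on the plus strand, that of Cyp1a1 is chr9:57697363-57697662 on the plus strand, and that of Ahrr is chr13:74292282-74292581 on the minus strand.
Cyp1b1: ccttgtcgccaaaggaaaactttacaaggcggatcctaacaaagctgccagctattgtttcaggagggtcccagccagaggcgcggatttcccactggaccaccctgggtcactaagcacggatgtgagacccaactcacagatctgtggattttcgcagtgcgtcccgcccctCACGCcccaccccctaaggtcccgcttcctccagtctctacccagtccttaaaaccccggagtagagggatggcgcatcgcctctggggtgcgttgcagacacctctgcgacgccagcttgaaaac
Tiparp: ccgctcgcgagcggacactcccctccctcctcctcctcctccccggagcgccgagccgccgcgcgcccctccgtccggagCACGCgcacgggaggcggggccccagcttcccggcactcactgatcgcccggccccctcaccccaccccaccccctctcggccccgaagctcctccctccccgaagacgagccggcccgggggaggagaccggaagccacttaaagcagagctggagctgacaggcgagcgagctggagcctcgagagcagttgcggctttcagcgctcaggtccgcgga
Cyp1a1: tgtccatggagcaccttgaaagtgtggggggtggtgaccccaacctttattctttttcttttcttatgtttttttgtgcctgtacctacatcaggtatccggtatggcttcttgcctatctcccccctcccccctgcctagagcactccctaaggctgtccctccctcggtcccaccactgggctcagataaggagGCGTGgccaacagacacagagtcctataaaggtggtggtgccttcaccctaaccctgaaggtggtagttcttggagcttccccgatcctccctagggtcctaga
Ahrr: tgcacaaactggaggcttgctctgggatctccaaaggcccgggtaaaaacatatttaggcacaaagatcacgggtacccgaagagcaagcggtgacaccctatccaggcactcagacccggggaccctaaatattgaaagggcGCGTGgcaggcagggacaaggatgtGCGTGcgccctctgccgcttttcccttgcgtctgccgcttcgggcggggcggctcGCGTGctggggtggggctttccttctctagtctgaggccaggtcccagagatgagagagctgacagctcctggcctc

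Cyp1b1 and Tiparp each held 1 core in the window, both on the strand opposite to the gene, with the first base at −76 for Cyp1b1 and −170 for Tiparp, counted from the start site. Cyp1a1 also held 1 core, at −54 on its own strand, and Arnt 1, at −29. Ahrr held 3, at −107, −82 and −27. Of the 32851 mouse promoter windows of 300 bases in the same table, 32.4% held at least 1 core and 3.91% held at least 3, so the presence of a single core is common. A match of these letters describes the window only, and the enhancer elements of Cyp1a1 are known to lie further upstream than it reaches.

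The deposited table gives the authors' estimated reads and TPM, a level corrected for gene length, for every gene in every library. Means of TPM are given ± SD with n = 3 libraries in each group, and SE stands for the standard error of the fitted change. The libraries held 16615824 to 17735860 reads. Squared differences between library pairs of the same group were on average 1.54 to 2.39 times those that sampling of reads would give. For pairs across the groups they were 133.1 to 135.8 times. No library was thus a copy of another and none stood apart from its group. The groups were compared on counts by the quasi-likelihood test of edgeR, adjusted after Benjamini and Hochberg over the 11983 genes that passed the filter on low counts. A gene was called when its adjusted p was below 0.05 and its log2 fold change of inhibitor-treated over IL-1β libraries exceeded 1 in size. By this rule 6.48% of the tested genes were called higher and 10.1% called lower with the inhibitor. By the adjusted p alone 40.2% were higher and 39.8% lower, and in 79.4% the TPM values of the groups did not overlap. The biological coefficient of variation over all genes, which edgeR estimated on the counts, was 2.33%. The methods call the 3 libraries of a group biological replicates, the labels do not say whether they came from separate cultures, and the p-values measure only the spread between them. In bulk RNA, fewer cells expressing a gene and less of its RNA per cell cannot be told apart. Of 15 cartilage marker genes 11 are listed in the table and 8 of these stayed below 1 TPM in every library, Col2a1 among them. Sox9 was at 6.44 TPM against 11.4 TPM with the inhibitor, Sox5 at 10.3 against 2.27 TPM and Col11a2 at 5.01 against 3.43 TPM. Of 10 mesenchymal markers all but Thy1 were detected, with summed levels of 7954 to 8159 TPM with IL-1β and 2777 to 2902 TPM with the inhibitor. S100a4, Vim and Col1a2 carried most of that sum, while Pdgfra (2.36 against 8.69 TPM) and Fn1 (360.5 against 416.6 TPM) were higher with the inhibitor. The summed level of 5 listed leukocyte markers was 10.9 to 14.2 TPM against 124.0 to 134.8 TPM, nearly all of it Cd68, a lysosomal membrane gene, while Ptprc, Itgam and Csf1r were below 1 TPM. Listed epithelial, hepatocyte and endothelial markers summed to 1.35 TPM or less in every library. The part of these markers in the results below was not tested.

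Of the 7 genes, 5 passed the filter. The remaining ones, Ahrr and Cyp1a1, had 5 reads and 1 read over all 6 libraries. Among the 5, Cyp1b1 and Aldh3a1 were past both cutoffs, both lower with the inhibitor, and none was past them toward higher levels, against the 10.1% and 6.48% of all tested genes given above. Since the genes were picked with this contrast known, and Aldh3a1 passed the filter through its IL-1β libraries, nothing is read from that count.

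**Figure D1:**
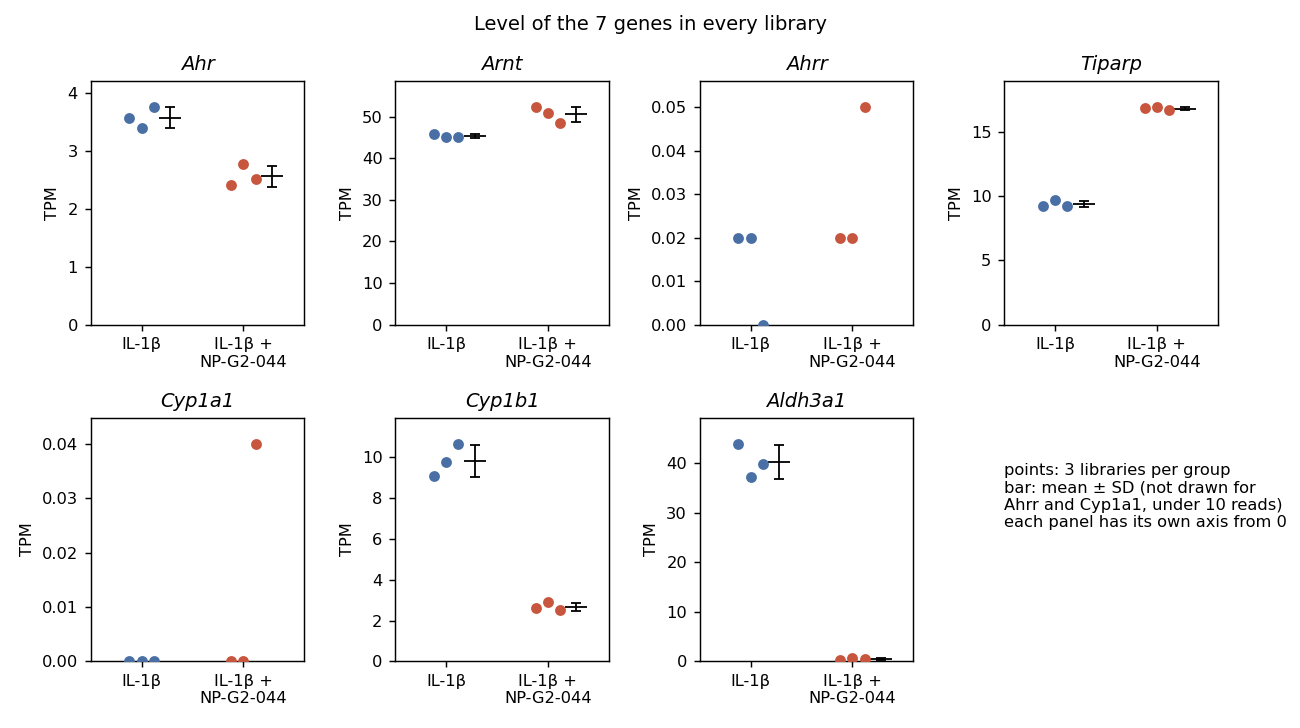
TPM of the 7 genes in the 3 IL-1β libraries (blue) and the 3 IL-1β plus NP-G2-044 libraries (red), with the mean ± SD beside the points (not drawn for Ahrr and Cyp1a1) and a separate axis from 0 for each gene. Aldh3a1 went from 37.17 TPM or more to 0.66 TPM or less, Cyp1b1 was also lower, Tiparp was higher, and Ahrr and Cyp1a1 stayed at or below 0.05 TPM.

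Ahr (Entrez gene 11622), the receptor gene, lies on the minus strand of chromosome 12 at 35497974 to 35535038 (GRCm38). It was at 3.57, 3.40 and 3.76 TPM with IL-1β and at 2.42, 2.77 and 2.51 TPM with the inhibitor. All 3 inhibitor-treated libraries were thus below all 3 IL-1β libraries, although the receptor transcript was scarce in both. The groups did not overlap in 79.4% of all tested genes, so this does not set Ahr or the genes below apart. Its means of 3.58 ± 0.18 TPM and 2.57 ± 0.182 TPM corresponded to a difference of −0.44 ± 0.0943 (SE) in fitted log2 level, on 594 reads against 459, and the ratio of pooled reads scaled by the read totals was 0.734 (exact 95% binomial interval 0.649 to 0.831, which like those below covers counting error only). Its exons share 127 bases with a non-coding RNA gene on the opposite strand that is not listed in the table, and the sources used here do not say whether strand was used in counting.

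Arnt (Entrez gene 11863) encodes the shared partner of the receptor and of the hypoxia-inducible factors, and lies on chromosome 3 at 95434388 to 95497240. It was at 45.79, 44.98 and 45.03 TPM with IL-1β and at 52.26, 50.80 and 48.52 TPM with the inhibitor. The groups did not overlap, but the difference was the smallest of the 5, a log2 fold change of 0.19 (standard error 0.0338). The partner transcript was far more abundant than that of the receptor, by 12.7 ± 0.64 times with IL-1β and 19.8 ± 1.67 times with the inhibitor as a ratio of TPM.

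The brakes of the pathway differed from each other in level. Tiparp (Entrez gene 99929), on chromosome 3 at 65528410 to 65555518, was at 9.21, 9.69 and 9.27 TPM with IL-1β and at 16.82, 16.92 and 16.69 TPM with the inhibitor. Its values were tight within both groups and well separated between them. The log2 fold change was 0.87 (standard error 0.0553), just under the cutoff of 1, and the ratio of pooled reads scaled by the read totals was 1.83 (exact 95% binomial interval 1.70 to 1.97). Its exons share 223 bases with a processed pseudogene on the opposite strand that is not listed in the table. Ahrr (Entrez gene 11624), on chromosome 13 at 74211118 to 74292331, had 1, 1 and 0 reads with IL-1β and 1, 1 and 1 with the inhibitor. A repressor gene at this depth was at the limit of detection in both groups, and no fold change is given.

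Among the CYP1 enzymes, which oxidise polycyclic hydrocarbons and steroids, only Cyp1b1 had more than 1 read over the 6 libraries. Cyp1b1 (Entrez gene 13078), on the minus strand of chromosome 17 at 79701537 to 79715061, was at 9.06, 9.75 and 10.65 TPM with IL-1β and at 2.60, 2.89 and 2.51 TPM with the inhibitor. Every inhibitor-treated library lay below every IL-1β library, and the read counts were 455, 462 and 545 against 133, 149 and 141. The log2 fold change was −1.86 (standard error 0.0827), and scaled by the read totals the pooled reads with IL-1β were 3.64 times those with the inhibitor (exact 95% binomial interval 3.26 to 4.06). Cyp1a1 (Entrez gene 13076), on chromosome 9 at 57687928 to 57703824, is the textbook reporter of receptor activity. It had 0 reads in all 3 IL-1β libraries and 0, 0 and 1 with the inhibitor. Cyp1a2, its neighbour in the family, had 0 reads in all 6. Cyp1b1 therefore supplied all but 0.04 TPM of the CYP1 family in any library. Its share of the summed TPM of 49 listed P450 genes went from 6.41% ± 0.523 to 1.63% ± 0.105.

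Aldh3a1 (Entrez gene 11670), on chromosome 11 at 61207537 to 61218421, was the gene of the 7 that differed most. It was at 43.95, 37.17 and 39.78 TPM with IL-1β and at 0.27, 0.66 and 0.46 TPM with the inhibitor. The inhibitor-treated libraries held only 4, 10 and 7 reads of it, where the IL-1β libraries held 635, 524 and 571. The fitted log2 fold change was −6.41 (standard error 0.152). That standard error is too small for a change resting on so few reads, and DESeq2 gave 0.327. Scaled by the read totals the pooled reads with IL-1β were 86.7 times those with the inhibitor. The exact 95% binomial interval of 56.5 to 140.4 is wide because of the 21 reads in the lower group. Only 16 of the 11983 tested genes had a lower log2 fold change. For Cyp1b1 484 genes were lower, for Ahr 2889, and for Tiparp 952 genes were higher.

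**Figure D2:**
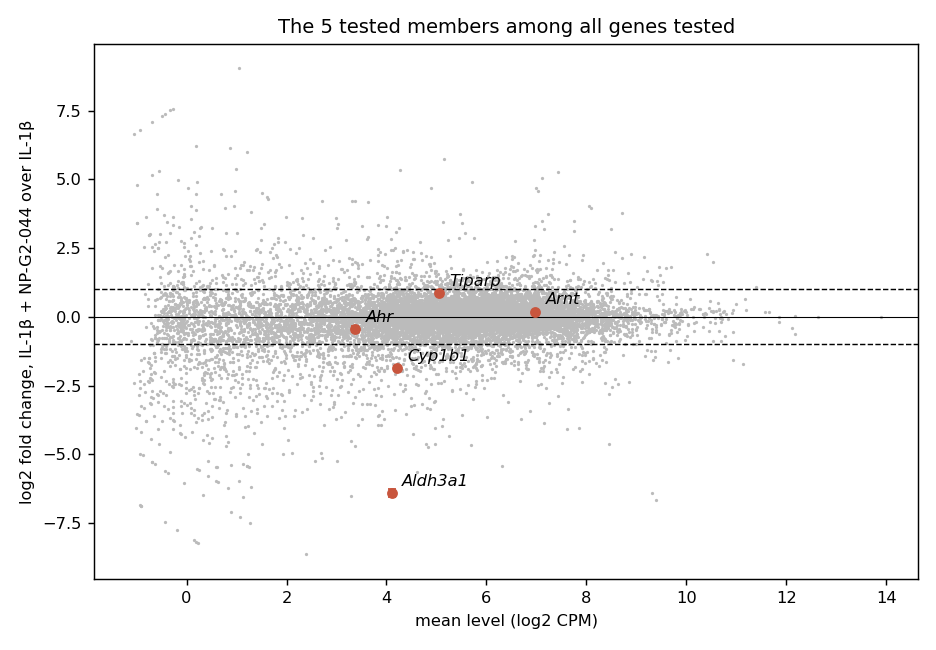
Log2 fold change of inhibitor-treated over IL-1β libraries against mean level in log2 CPM for all 11983 tested genes (grey), with the 5 tested genes of the pathway in red (bars, standard error) and dashed lines at the cutoffs of −1 and 1. Aldh3a1 at −6.41 lies near the bottom of the cloud, Cyp1b1 at −1.86 below the cutoff, and Ahr, Arnt and Tiparp between the lines.

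The order of the levels, compared as TPM, also differed between the groups. With IL-1β the order was Arnt, Aldh3a1, Cyp1b1, Tiparp and Ahr, followed by Ahrr and Cyp1a1 near 0. In that order Cyp1b1 (9.06 to 10.65 TPM) and Tiparp (9.21 to 9.69 TPM) overlapped, and the other neighbours among the first 5 did not. With the inhibitor the order was Arnt, Tiparp, Cyp1b1, Ahr and Aldh3a1. There Cyp1b1 (2.51 to 2.89 TPM) and Ahr (2.42 to 2.77 TPM) overlapped, and Aldh3a1 at no more than 0.66 TPM had passed from second place to below the receptor gene. Among all listed genes Aldh3a1 ranked between 3613 and 4214 with IL-1β and between 11275 and 12016 with the inhibitor.

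The profiles of the 5 genes over the 6 libraries were compared with those of all other tested genes of at least 1 TPM, as the Euclidean distance of log2(TPM + 0.1) centred on the mean of each gene. The distance reflects mainly the size of the difference between the groups, with n = 6 libraries. Nearest to Aldh3a1 were Igfbp3 (distance 0.885), which encodes a binding protein of insulin-like growth factors, Orm2 (0.919), an acute-phase glycoprotein gene, and Gas1 (0.972), a membrane protein gene of hedgehog signaling. Nearest to Cyp1b1 were Ercc6l (0.115), Aspm (0.141) and Cenpf (0.146), all genes of mitosis, with log2 fold changes of −1.83, −1.89 and −1.91. Nearest to Tiparp were Dync1li2 (0.0297), Tlk2 (0.0433) and Yae1d1 (0.0446). Ahr was nearest to Lcmt2 (0.0740), Zfp97 (0.0752) and Dmac2 (0.0895), and Arnt to Hspa4 (0.0341), Timm22 (0.0411) and Fam172a (0.0457).

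Genes of the proteins that hold or assist the receptor were examined next, as RNA, in lists of genes that are none of the 7. Shares over all tested genes to set beside the counts of each list are 6.48% called higher and 10.1% called lower. By the adjusted p alone they are 40.2% higher and 39.8% lower. In the list of 6 complex partners none was called, with 4 higher and 2 lower by the adjusted p alone and a median log2 fold change of 0.22, against 0.00185 over all tested genes. Hsp90ab1, the most abundant, is a chaperone gene and fell from 3566 ± 44.1 TPM to 2651 ± 31.9 TPM, and its log2 fold change was −0.40 with an adjusted p of 3.52e-20 by edgeR. Hsp90aa1, the other HSP90 gene of the list, instead rose from 676.4 ± 22.7 TPM to 812.4 ± 10.9 TPM (log2 fold change 0.30). Ptges3, the gene of p23, was also higher, at 246.5 ± 2.99 TPM against 282.4 ± 6.42 TPM (0.23). Arnt2, a relative of Arnt that can take its place, had a log2 fold change of 0.79. In the list of 13 coregulator and turnover genes 1 was called, Relb, an NF-κB subunit gene whose protein can pair with the receptor. Relb rose from 21.8 ± 0.364 TPM to 46.3 ± 2.09 TPM, and its log2 fold change was 1.11 ± 0.051 (SE) with an adjusted p of 2.23e-26 by edgeR. By the adjusted p alone 5 genes of that list were higher, 4 were lower and 4 did not pass, with a median log2 fold change of −0.04. Stub1, a ubiquitin ligase gene and the most abundant of the list, was at 232.3 ± 8.77 TPM and 219.9 ± 10.3 TPM and did not pass, with an adjusted p of 0.171 by edgeR.

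Other target genes of the receptor, most of which answer to other regulators too, did not all change in the same direction. Of 22 listed genes 20 are in the table and 14 could be tested. Of these 2 were called higher and 2 called lower, against 6.48% and 10.1% of all tested genes. By the adjusted p alone 10 were higher and 4 lower, against 40.2% and 39.8% of all tested genes. The median log2 fold change was 0.43, against 0.00185 over all tested genes, and the list as a set was not tested. Nqo1, a quinone reductase gene of the same dioxin-induced battery as Aldh3a1, fell from 16.4 ± 0.762 TPM to 5.96 ± 0.791 TPM, and its log2 fold change was −1.43 ± 0.105 (SE) with an adjusted p of 8.74e-18 by edgeR. Nedd9, a scaffold gene of focal adhesions, fell from 4.72 ± 0.365 TPM to 1.17 ± 0.168 TPM, and its log2 fold change was −1.98 with an adjusted p of 3.03e-21 by edgeR. On the other side Gsta1, a glutathione transferase gene of the battery, rose from 6.25 ± 1.74 TPM to 76.4 ± 5.55 TPM, and its log2 fold change was 3.62 ± 0.112 (SE) with an adjusted p of 1.92e-32 by edgeR. Gsta1 has a close copy in Gsta2, which had 4 reads against 24, and reads could have been divided between them. Slc7a5, an amino acid transporter gene that ATF4 also controls, rose from 87.5 ± 3.01 TPM to 229.5 ± 4.67 TPM, and its log2 fold change was 1.42 with an adjusted p of 2.96e-42 by edgeR. Bax, the most abundant of the list and a gene of apoptosis, had a log2 fold change of 0.48. Ugt1a6a and Ugt1a6b, named after their values were seen, share most of their exons and were at 0.65 and 0.78. The target genes named here were thus split. Nqo1 and Nedd9 were lower, and Gsta1, Slc7a5, Bax, Ugt1a6a and Ugt1a6b higher, in every inhibitor-treated library than in any IL-1β library.

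**Figure D3:**
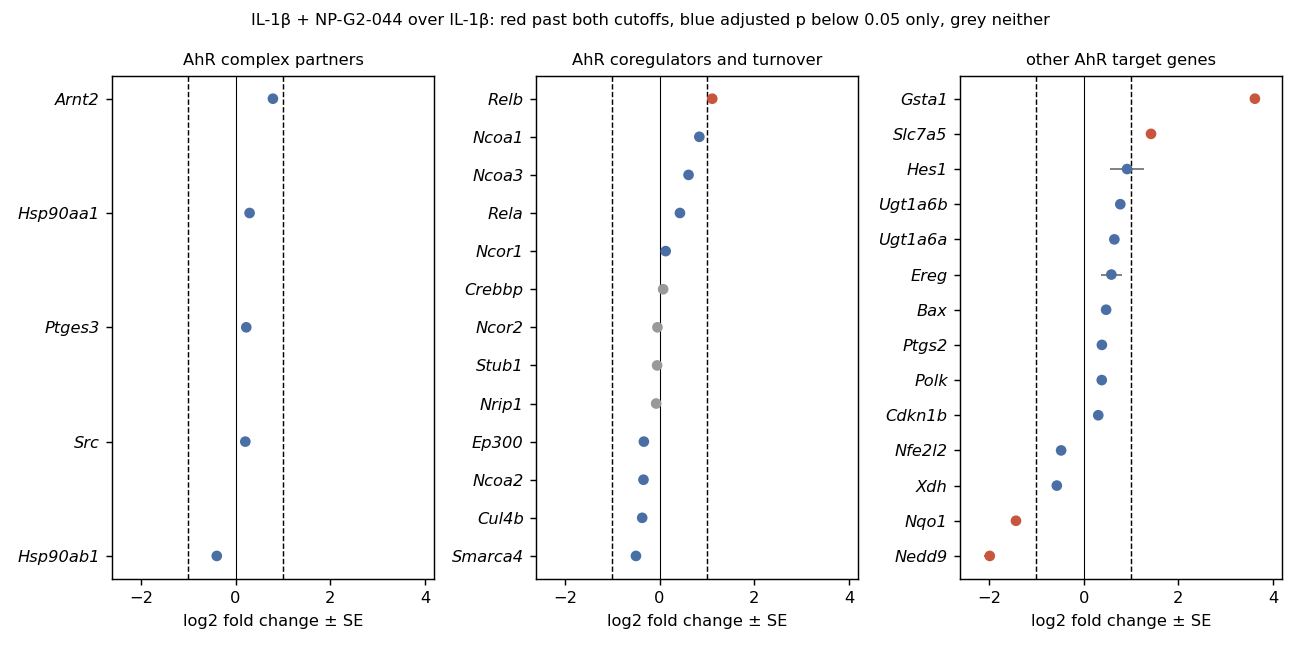
Log2 fold change (points) and standard error (bars) of tested genes in the lists of receptor complex partners, coregulators and other receptor targets, inhibitor-treated over IL-1β libraries. Red points are past both cutoffs, blue points have an adjusted p below 0.05 only, and grey points neither. The targets reach from Nedd9 at −1.98 to Gsta1 at 3.62, while every complex partner shown stays between −1 and 1.

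Enzymes that make or spare receptor ligands from tryptophan were sparse. Of 13 listed genes 11 are in the table and 5 could be tested, and Ido1 and Kynu are not listed. Slc7a5, which also imports tryptophan, was the only gene of this list called. By the adjusted p alone 3 of the 5 were higher and 2 lower. Il4i1, named after its value was seen, encodes an oxidase that forms an indole ligand of the receptor. It was at 0.56, 0.81 and 0.91 TPM with IL-1β and at 1.00, 2.16 and 1.25 TPM with the inhibitor, a log2 fold change of 0.99 ± 0.282 (SE) with an adjusted p of 0.00157 by edgeR that was called when any of 4 of the 6 libraries was left out. Without inhibitor-treated replicate 2 it was 0.61 with an adjusted p of 0.0696 by edgeR. The table holds a similar gene, Il4i1b, with 30 reads against 148 (log2 fold change 2.22), and reads could have been divided between them. Il4i1b is not in the list of 13. It was past both cutoffs, with an adjusted p of 2.63e-11 by edgeR, and lay between 2.07 and 2.53 with each library left out.

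Aldh3a1 was set beside the other aldehyde dehydrogenases, which clear aldehydes or feed folate and amino acid synthesis. Of 20 other family members listed, 17 are in the table and 12 could be tested. Of these 3 were called higher and 1 was called lower, against 6.48% and 10.1% of all tested genes. By the adjusted p alone 5 were higher, 6 lower and 1 did not pass, with a median log2 fold change of −0.12. Aldh3b1, a close relative, was the one called lower. It was at 2.93 ± 0.43 TPM and 0.65 ± 0.1 TPM, and its log2 fold change was −2.13 ± 0.239 (SE) with an adjusted p of 1.71e-11 by edgeR. Aldh3a2, which encodes the fatty aldehyde dehydrogenase, was instead higher, at 33.0 TPM against 53.9 TPM, a log2 fold change of 0.75 with an adjusted p of 7.46e-24 by edgeR. The large rises were those of Aldh1l2, a mitochondrial folate enzyme gene, and Aldh18a1, a gene of proline synthesis. Aldh1l2 rose from 15.5 ± 1.40 TPM to 209.6 ± 3.71 TPM, and its log2 fold change was 3.79 ± 0.0375 (SE) with an adjusted p of 1.59e-47 by edgeR. Aldh18a1 rose from 87.6 ± 3.46 TPM to 244.6 ± 5.80 TPM, and its log2 fold change was 1.52. The third called rise, Aldh1a3, named after its value was seen, had 8, 20 and 7 reads against 22, 39 and 17, and its groups overlapped. Its log2 fold change of 1.08 was under the cutoff when IL-1β replicate 1 (0.87), IL-1β replicate 3 (0.81) or inhibitor-treated replicate 2 (0.67, adjusted p of 0.103 by edgeR) was left out, and with limma on both log2 TPM scales. Aldh2, the mitochondrial enzyme that clears acetaldehyde and the most abundant with IL-1β, went from 237.0 ± 5.86 TPM to 144.1 ± 4.33 TPM, and its log2 fold change was −0.70 with an adjusted p of 2.07e-28 by edgeR.

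The summed level of the family without Aldh3a1 was 468.6 to 476.7 TPM in the IL-1β libraries and 725.6 to 745.7 TPM in the inhibitor-treated libraries. Aldh1l2 and Aldh18a1 carried that difference, and the sum of the 15 remaining genes was 359.9 to 376.1 TPM against 275.9 to 282.9 TPM. Aldh3a1 made up 7.87% ± 0.66 of the family's TPM with IL-1β and 0.0632% ± 0.027 with the inhibitor.

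**Figure D4:**
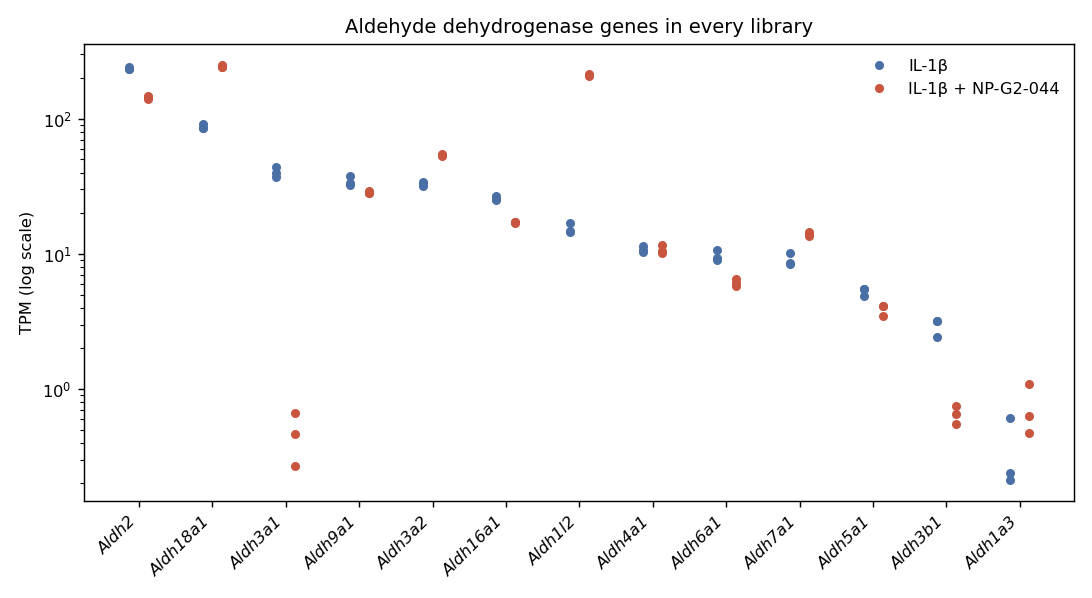
TPM on a log scale of Aldh3a1 and the 12 tested aldehyde dehydrogenase genes in each of the 3 IL-1β libraries (blue) and the 3 IL-1β plus NP-G2-044 libraries (red), ordered by the mean with IL-1β. Only Aldh2 and Aldh18a1 stood above Aldh3a1 with IL-1β, Aldh3a1 shows the widest gap downward, and Aldh1l2 and Aldh18a1 rose.

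The families of Cyp1b1, Ahr and Tiparp were described in the same way. Among the 47 other P450 genes listed, 17 could be tested, and the median log2 fold change was 0.42, with 2 called higher and 1 called lower. Cyp39a1, an oxysterol hydroxylase gene of bile acid synthesis, fell from 7.71 ± 0.269 TPM to 0.78 ± 0.147 TPM, and its log2 fold change was −3.28 ± 0.137 (SE) with an adjusted p of 3.93e-28 by edgeR. The 2 rises were on few reads, 6 against 99 for Cyp2c23 (log2 fold change 3.89) and 29 against 160 for Cyp4b1 (2.38). Cyp20a1, the most abundant, had a log2 fold change of 0.24. Of 4 genes of the P450 electron donors 3 were lower by the adjusted p, against 39.8% of all tested genes. Cyb5r3, the cytochrome b5 reductase gene, fell from 313.9 ± 2.10 TPM to 123.1 ± 4.12 TPM, and its log2 fold change was −1.31 with an adjusted p of 1.22e-39 by edgeR, and Por, the P450 reductase gene, had a log2 fold change of −0.42.

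Among 16 other bHLH-PAS genes, the family of Ahr and Arnt, 15 are in the table, 8 could be tested and 2 were called, both lower. By the adjusted p alone 3 were higher, Arnt2, Arntl and Clock, with log2 fold changes of 0.79, 0.63 and 0.50, while 4 were lower and 1 did not pass. The called genes encode clock proteins with PAS domains and no bHLH domain, and none of the tested genes of the list with both domains was called. They were Per2, with a log2 fold change of −1.43 ± 0.113 (SE) with an adjusted p of 3.88e-15 by edgeR, and Per3, with −1.10 and an adjusted p of 1.18e-16 by edgeR. Hif1a, the most abundant and the hypoxia factor that also needs ARNT, had a log2 fold change of −0.32. Of 15 other PARP family genes 14 could be tested. By the adjusted p 9 were lower and 3 higher, against 39.8% and 40.2% of all tested genes. The median log2 fold change was −0.24. Tiparp thus lay above the median of its family. The only PARP gene called was Parp14, which fell from 2.35 ± 0.451 TPM to 0.467 ± 0.0702 TPM, and its log2 fold change was −2.29 ± 0.147 (SE) with an adjusted p of 9.17e-18 by edgeR. Parp1, the most abundant and a DNA damage sensor gene, had a log2 fold change of −0.55.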

How the data were processed

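RNA-sequencing of 3 IL-1β and 3 IL-1β plus NP-G2-044 samples was analysed. According to the methods BGI sequenced and quantified the libraries. The submitters' processing notes name cutadapt, HISAT2 2.0, StringTie and build mm10, and give no role or order for them. The sources used here do not name the annotation. The authors deposited estimated counts, not normalized, of which 10.2% to 11.1% per library are not whole, and TPM values scaled by the authors to the same total per library. Their FPKM and group means were not used.

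Counts were rounded, filtered with filterByExpr (minimum count 10), normalized with TMM and tested in edgeR 4.0.16 (R 4.3.3) by its quasi-likelihood F-test with Benjamini-Hochberg adjustment over all 11983 genes tested, without covariates. Both cutoffs are those the study states. The steps were tested on simulated data. DESeq2 1.42.0, limma 3.58.1, other scalings and filters, a replicate block and leaving out each library were the alternatives. The standard error is the fold change over the square root of F, which can be too small where a large change rests on few reads. For Ahr, Arnt, Tiparp and Cyp1b1 the standard errors by DESeq2 were also larger, at 0.130, 0.0435, 0.0753 and 0.112. Named in each list were the most abundant gene and up to 3 called rises and 3 called falls of at least 1 TPM, and others as examples after their values were seen. The 7 genes and all lists were chosen with earlier results of these data known. Gene positions are of GENCODE vM21 on GRCm38, the assembly of mm10. Values of 2 listed genes are not reported here.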

Additional observations from a re-analysis of the deposited data

How the results depend on the processing

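The log2 fold changes of Aldh3a1 and Cyp1b1 stayed below −1 under every alternative run. The genes were picked with this contrast known, so no support is drawn from that. With each library left out in turn the log2 fold change of Aldh3a1 lay between −6.75 and −6.14, that of Cyp1b1 between −1.91 and −1.78, that of Tiparp between 0.86 and 0.89, that of Ahr between −0.50 and −0.40 and that of Arnt between 0.17 and 0.22. The tryptophan list then had 1 to 2 genes called, 2 without IL-1β replicate 2 or 3 or inhibitor-treated replicate 1 or 3, where Il4i1 passed the cutoff. Of the aldehyde dehydrogenases only the call of Aldh1a3 was lost with a library left out, with log2 fold changes of 0.67 to 1.71 over these fits. With limma on log2(TPM + 1), a scale that understates the change of low genes, Aldh3a1 was at −4.82, Cyp1b1 at −1.56 and Tiparp at 0.78, and with log2(TPM + 0.1) Tiparp was at 0.83. That first scale called 514 genes higher and 802 lower, where the reported test called 776 and 1211, and 1 bHLH-PAS gene, as Per3 (log2 fold change −0.88) was under the cutoff. Requiring 10 CPM or more in 3 or more libraries left 484 called higher and 680 lower among 9447 tested, with 2 aldehyde dehydrogenases, 0 PARP genes and 1 P450 gene called. Without a filter 7 target genes, 4 bHLH-PAS genes and 7 P450 genes were called, the added ones on 50 reads or fewer in all. Correlations of the deviations from the group mean lay between −0.09 and 0.03 for same-numbered libraries and between −0.11 and 0.13 for the others. With 3 libraries in each group this cannot decide whether the replicate numbers pair the samples. A fit with the replicate block called 775 genes higher and 1209 lower and changed no call of the named genes. Depth limits Ahrr and Cyp1a1, and sets the width of the interval of Aldh3a1.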
